A study of Mus musculus with 7 samples.

Results

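The lysine tRNAs of mouse glial cells were examined across 7 QuantM-seq libraries. They comprise 2 isoacceptors, Lys-TTT and Lys-CTT, which are tRNAs that carry the same amino acid and have different anticodons. Members were all rows of the deposited tables named for lysine, which gave 2 of 52 anticodon pools and 16 of 217 isodecoders, tRNAs that share an anticodon and differ elsewhere in the body. Lys-TTT had 5 isodecoders and Lys-CTT had 11. Anticodons are spelled as in the tables, in DNA letters, so that the T of Lys-TTT stands for uridine in the tRNA. A number after the anticodon marks the isodecoder.

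Lysine is encoded by AAA and AAG. Lys-TTT pairs with AAA and, through its wobble uridine, can also read AAG, whereas Lys-CTT reads AAG. Lys-TTT is among the most heavily modified tRNAs in the anticodon loop. Its wobble uridine (U34) carries the mcm5s2 group, made by Elongator and a thiolation pathway. The adenosine that follows the anticodon carries a t6A derivative. The same wobble modification is reported for the tRNAs Glu-TTC, Gln-TTG and Arg-TCT.

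There were 3 libraries of oligodendrocyte progenitor cells (OPCs), 2 of oligodendrocytes (OL) and 2 of astrocytes (Astro), all of strain 129S/SvEv. OPCs were derived in culture from epiblast stem cells of that strain and grown with bFGF and PDGFA. Oligodendrocytes were made from OPCs in medium with noggin, IGF-1, cyclic AMP, NT3 and the thyroid hormone T3 at 40 ng/mL. Astrocytes were made from OPCs in medium with bFGF, Hb-EGF, CNTF, N-acetyl-cysteine and BMP4 at 10 ng/mL. By the study's methods the 2 oligodendrocyte replicates were differentiated from 2 of the OPC replicates, without saying which ones, so the groups are not independent animals or lines. tRNA tables hold no marker mRNAs, so the cell type labels could not be checked here. The study checked its cultures by staining and RT-PCR of markers. It reports that most cells became mature or earlier-stage oligodendrocytes and that some remained undifferentiated OPCs. The oligodendrocyte group is therefore a mixed culture, and the share of OPCs in these libraries was not measured here.

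Reads assigned to tRNAs numbered from 1339021 to 2627351 per library, and values are RPM, read counts scaled so that all cytosolic and mitochondrial tRNA reads have the same sum in each library. A count of 3 reads, the limit that a count of 0 allows, stood for 1.14 to 2.24 RPM, depending on the library. Reads outside the listed cytosolic tRNAs ranged from 3.55% to 7.88% and were fewest in the oligodendrocyte libraries. Intervals and limits cover counting error only, because PCR copies carried no molecular identifiers. A level here is a share of tRNA reads, so less of a tRNA and more of the others cannot be told apart.

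A RefSeq gene table on GRCm38.p6, the assembly also called mm10, listed 24 Lys-CTT genes on 12 chromosomes and 2 Lys-TTT genes on 1, each 73 bases long. Both Lys-TTT genes were intergenic, at chr13:21907940-21908012 and chr13:21971788-21971860. Of the Lys-CTT genes 19 were intergenic and 5 lay in introns of Cdh19, Rinl, Trim7, Igf1os and Gm47214. The gene in Cdh19 was at chr1:110904747-110904819 and the gene in Trim7 at chr11:48833883-48833955. The deposited tables do not say which of these genes belongs to which isodecoder.

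Lys-TTT was one of the most abundant tRNA pools in every library. It held 74477, 66015 and 69346 RPM in OPC replicates 1 to 3, 65559 and 63612 RPM in the oligodendrocyte replicates, and 80947 and 68574 RPM in the astrocyte replicates. It ranked between 1 and 3 among the 52 anticodons, and it was the most abundant pool in both astrocyte libraries and in oligodendrocyte replicate 2. Both oligodendrocyte libraries lay below all OPC and astrocyte libraries, by a small margin, and the astrocyte libraries overlapped the OPC libraries.

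Lys-CTT was less abundant and ranked between 9 and 13. It held 29209, 31117 and 36853 RPM in OPC replicates 1 to 3, 31264 and 28855 RPM in oligodendrocytes, and 32586 and 32122 RPM in astrocytes. OPC replicate 3 had the highest value and oligodendrocyte replicate 2 the lowest, just below the OPC range, which covered the remaining libraries.

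**Figure D1:**
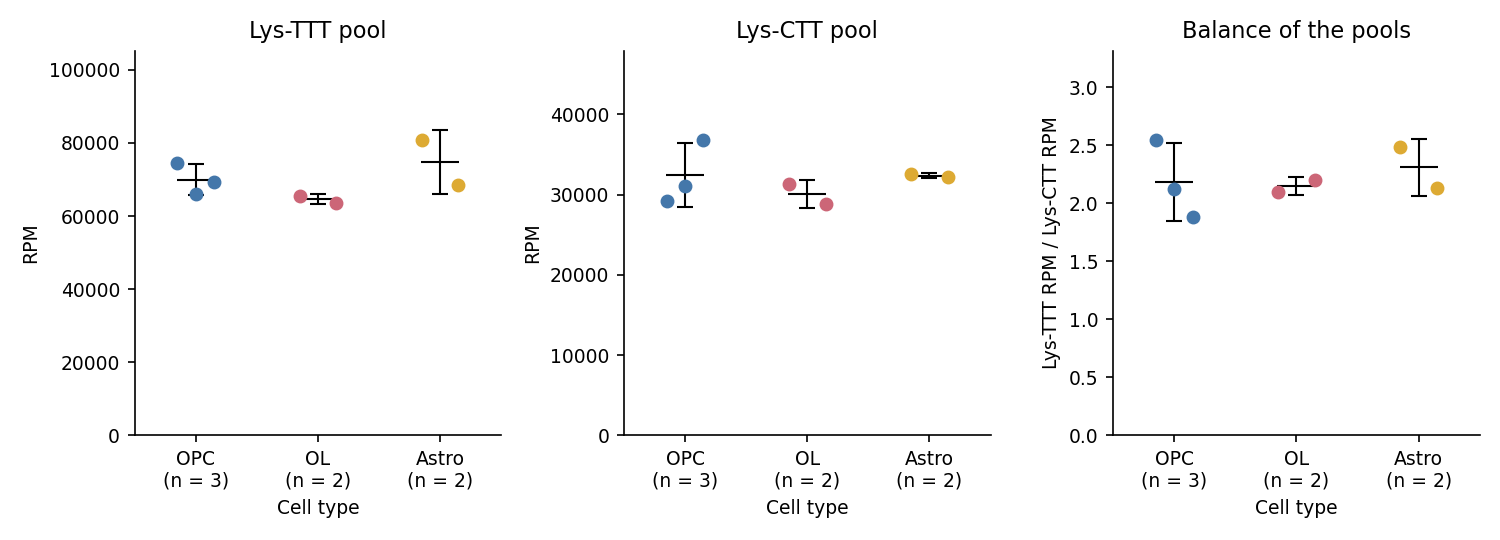
RPM of the Lys-TTT pool, RPM of the Lys-CTT pool, and their ratio, by cell type. Points are libraries, the horizontal mark is the group mean and the bar is ± SD (OPC n = 3, OL n = 2, Astro n = 2). The ratio spans 1.88 to 2.55 within the OPC libraries, which covers every other library.

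In the comparison of oligodendrocytes with OPCs, which asked how lysine pools differ after differentiation, Lys-TTT was 64586 ± 1376 RPM (SD, n = 2) against 69946 ± 4263 RPM (SD, n = 3). Its log2 change on the log2(RPM + 1) scale was -0.11 (SE 0.065, limma adjusted p 0.269), and it was -0.07 without OPC replicate 1. Lys-CTT was 30059 ± 1703 RPM (SD, n = 2) against 32393 ± 3979 RPM (SD, n = 3), and differed by -0.10 on the log2 scale (SE 0.12, limma adjusted p 0.513). Leaving out 1 library moved this from -0.17, without OPC replicate 1, to -0.0054, without OPC replicate 3, and it was -0.16 and -0.04 without oligodendrocyte replicates 1 and 2. Neither pool passed an adjusted p of 0.01. Of all 52 anticodons, 0 (0%) passed by limma and 13 had an unadjusted p under 0.05. At an adjusted p of 0.01 the study's own DESeq2 test named Phe-GAA, Leu-TAA and the selenocysteine tRNA between these cell types, and no lysine pool. The 0 by limma therefore does not show that no anticodon differed. The oligodendrocyte libraries lay entirely outside the OPC range for Lys-TTT but not for Lys-CTT, where they did so for 48.1% of all anticodons. Over all anticodons the median log2 change was 0.12, and it was 0.06 after median-of-ratios scaling.

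Astrocytes were compared with OPCs as the other fate of the same progenitors. Lys-TTT was 74761 ± 8749 RPM (SD, n = 2) in astrocytes. It differed by 0.09 on the log2 scale (SE 0.10, limma adjusted p 0.607), with the opposite sign without astrocyte replicate 1, at -0.03. Lys-CTT was 32354 ± 328 RPM (SD, n = 2) there and differed by 0.0053 (SE 0.11, limma adjusted p 1). Of the 52 anticodons 0 (0%) passed by limma, and 6 had an unadjusted p under 0.05. Both lysine pools had overlapping libraries, where 32.7% of all anticodons had libraries that did not overlap.

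Between oligodendrocytes and astrocytes both pools were lower in oligodendrocytes, and neither difference passed. The log2 difference was -0.21 for Lys-TTT (SE 0.10, limma adjusted p 0.327) and -0.11 for Lys-CTT (SE 0.12, limma adjusted p 0.571). Without astrocyte replicates 1 and 2 the first was -0.09 and -0.33, and without oligodendrocyte replicates 1 and 2 the second was -0.17 and -0.05. Of the 52 anticodons 0 (0%) passed by limma and 8 had an unadjusted p under 0.05. Both lysine pools had libraries that did not overlap, as did 57.7% of all anticodons.

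The summed lysine tRNA made up 11.1%, 10.4% and 11.2% of the listed cytosolic tRNA in OPC replicates 1 to 3, 10.0% and 9.62% in the oligodendrocyte libraries, and 12.3% and 10.9% in the astrocyte libraries. Both oligodendrocyte libraries were below all the others. On the log2 RPM scale the total differed by -0.11 between oligodendrocytes and OPCs (exact permutation p 0.2, two-sided), by 0.06 between astrocytes and OPCs (exact permutation p 0.5) and by -0.18 between oligodendrocytes and astrocytes (exact permutation p 0.333). The last of these was -0.09 without astrocyte replicate 1 and -0.26 without astrocyte replicate 2. The 10 splits of 3 against 2 libraries allow no p below 0.1 and the 6 splits of 2 against 2 none below 0.333, so these designs could not reach 0.05. After Benjamini-Hochberg adjustment over 6 tests, which include those of the balance of the pools, each exact permutation p of the total was 0.84.

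Lys-TTT was the larger pool in every library. The ratio was 2.55, 2.12 and 1.88 in OPC replicates 1 to 3, 2.10 and 2.20 in oligodendrocytes, and 2.48 and 2.13 in astrocytes. Lys-TTT thus supplied between 65.3% and 71.8% of lysine tRNA reads in OPCs, 67.7% and 68.8% in oligodendrocytes, and 71.3% and 68.1% in astrocytes. The widest spread was among OPCs, whose highest and lowest libraries enclosed all 4 libraries of the differentiated cells.

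The mean log2 ratio was 1.12 in OPCs, 1.10 in oligodendrocytes and 1.20 in astrocytes. The difference was -0.011 between oligodendrocytes and OPCs (two-sided exact permutation p 0.9, adjusted 0.9), and its sign turned without OPC replicate 1, at 0.11, or without oligodendrocyte replicate 1, at 0.02. It was 0.09 between astrocytes and OPCs (exact permutation p 0.7, adjusted 0.84), where leaving out OPC replicate 3 gave -0.01 and leaving out astrocyte replicate 1 gave -0.02. It was -0.10 between oligodendrocytes and astrocytes (exact permutation p 0.667, adjusted 0.84), and 0.01 without astrocyte replicate 1. Using only the most abundant isodecoder of each pool, the ratio of Lys-TTT-1 to Lys-CTT-3 ran from 2.24 to 3.17 in OPCs, and was 2.67 and 2.85 in oligodendrocytes and 3.09 and 2.62 in astrocytes. With that ratio the difference between oligodendrocytes and OPCs was 0.06 on the log2 scale, of opposite sign to that of the pools.

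The balance was also tested as the share of an anticodon in all tRNA of its amino acid, over 39 such shares, so that the spread was estimated across amino acids. The share of Lys-TTT differed by -0.0013 on the log2 scale between oligodendrocytes and OPCs (SE 0.051, limma adjusted p 0.981), by 0.03 between astrocytes and OPCs (SE 0.057, limma adjusted p 0.802) and by -0.03 between oligodendrocytes and astrocytes (SE 0.054, limma adjusted p 0.733). Over these 39 shares 0 (0%) passed by limma in each comparison, while 12, 6 and 6 had an unadjusted p under 0.05. Neither lysine share had libraries that did not overlap in any comparison, against 46.2%, 23.1% and 53.8% of all shares in the same order.

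The other 4 amino acids with a U34 and a C34 isoacceptor in a split codon box were listed beside lysine. The ratio of the U34 to the C34 pool over the 7 libraries ranged from 1.88 to 2.55 for lysine, from 1.84 to 3.15 for leucine (Leu-TAA over Leu-CAA), from 1.04 to 1.47 for arginine (Arg-TCT over Arg-CCT), from 0.634 to 0.731 for glutamate (Glu-TTC over Glu-CTC) and from 0.0223 to 0.0341 for glutamine (Gln-TTG over Gln-CTG). The highest library was 1.36 times the lowest for lysine, 1.71 times for leucine, 1.41 times for arginine, 1.15 times for glutamate and 1.53 times for glutamine. Oligodendrocytes and OPCs did not overlap for leucine, at 2.12 ± 0.051 (SD, n = 2) and 2.92 ± 0.211 (SD, n = 3), or for glutamate, at 0.662 ± 0.039 (SD, n = 2) and 0.718 ± 0.014 (SD, n = 3). They overlapped for lysine, arginine and glutamine.

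Among the other tRNAs reported to carry mcm5s2U34, 0 of 3 passed in limma in any comparison, and 0 of 3 had an unadjusted p under 0.05. These tests concern levels and not the modification itself. In the study's gels that slow sulfur-containing tRNAs, Lys-TTT, Glu-TTC and Gln-TTG had a lower ratio of sulfur-containing to other tRNA in oligodendrocytes than in OPCs. Arg-TCT showed no shift in those gels. Between oligodendrocytes and OPCs the log2 change was -0.07 for Glu-TTC (limma adjusted p 0.244), -0.07 for Gln-TTG (limma adjusted p 0.832) and 0.04 for Arg-TCT (limma adjusted p 0.53). Between astrocytes and OPCs it was -0.01, -0.32 and -0.07 in the same order, with limma adjusted p-values of 0.912, 0.489 and 0.531. Gln-TTG was by far the rarest of the 4 anticodons, at 1372 ± 298 RPM (SD, n = 3) in OPCs.

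Each pool was dominated by few isodecoders. In the Lys-TTT pool, Lys-TTT-1 supplied 97.1% of the reads on average over all libraries, Lys-TTT-2 2.76%, Lys-TTT-3 0.110% and Lys-TTT-5 0.011%. In the Lys-CTT pool, Lys-CTT-3 supplied 78.2%, Lys-CTT-2 19.3%, Lys-CTT-4 1.91% and Lys-CTT-1 0.556%. Expressed as the number of equally abundant isodecoders that would give the same concentration, the Lys-TTT pool had between 1.03 and 1.09 and the Lys-CTT pool between 1.48 and 1.60. The Lys-TTT value was lower in both oligodendrocyte libraries, at 1.03 in each, than in the astrocyte libraries, at 1.05 in each, and in the OPC libraries, at 1.08 to 1.09.

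**Figure D2:**
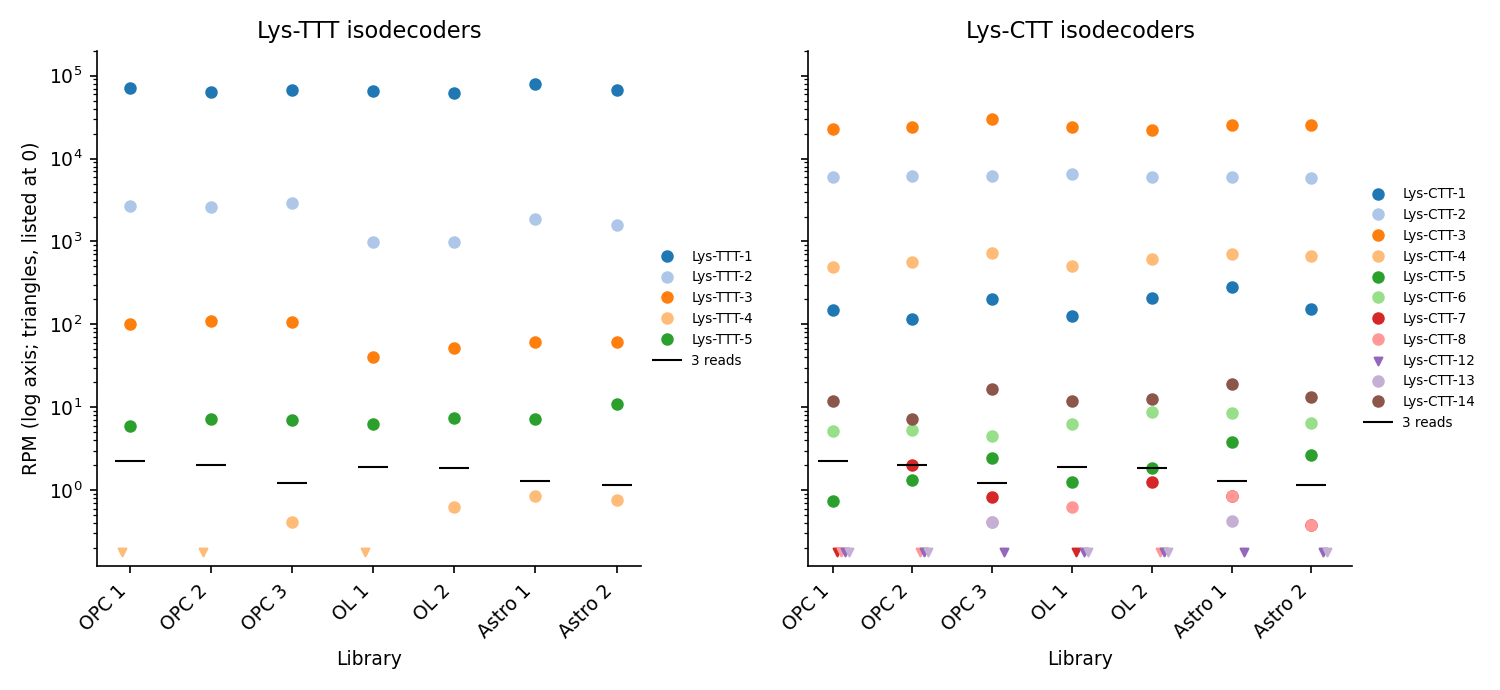
RPM of each lysine isodecoder in each library on a log axis, for the Lys-TTT pool and the Lys-CTT pool. Triangles at the lower edge are values listed at 0 and horizontal bars mark 3 reads in that library. Lys-TTT-2 and Lys-TTT-3 are lower in the oligodendrocyte and astrocyte libraries than in the OPC libraries, and Lys-TTT-4, Lys-CTT-8, Lys-CTT-12 and Lys-CTT-13 lie under 3 reads throughout.

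Of the 16 isodecoders 11 had a mean of at least 1 RPM and were tested, 4 of Lys-TTT and 7 of Lys-CTT. The other 5, Lys-TTT-4, Lys-CTT-7, Lys-CTT-8, Lys-CTT-12 and Lys-CTT-13, ranged from 0 to 1.99 RPM in single libraries, within the limit that 3 reads set there. Lys-CTT-12 was listed at 0 in all 7 libraries, and the other 4 had 6, 10, 5 and 2 reads over all libraries in the order given. Nothing can be said at this depth of a difference between groups in these 5.

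The row names list the identical gene copies that each isodecoder stands for, 13 in the Lys-TTT pool and 18 in the Lys-CTT pool. These counts differ from those of the RefSeq table, which listed 2 and 24, and the lists were not matched gene by gene. Lys-TTT-1 stood for 6 copies and Lys-CTT-3 for 7, and these were also the most abundant members. Per copy, Lys-TTT-1 had 11295 RPM, Lys-CTT-3 3547 RPM, Lys-CTT-2, with 2 copies, 3039 RPM and Lys-TTT-2, also with 2, 967 RPM. The levels per copy of the single-copy members ran from 607 RPM for Lys-CTT-4 down to 0 for Lys-CTT-12. Lys-TTT-4 stood apart: it named 3 copies and was read 6 times in all, an average of 0.126 RPM per copy.

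**Figure D3:**
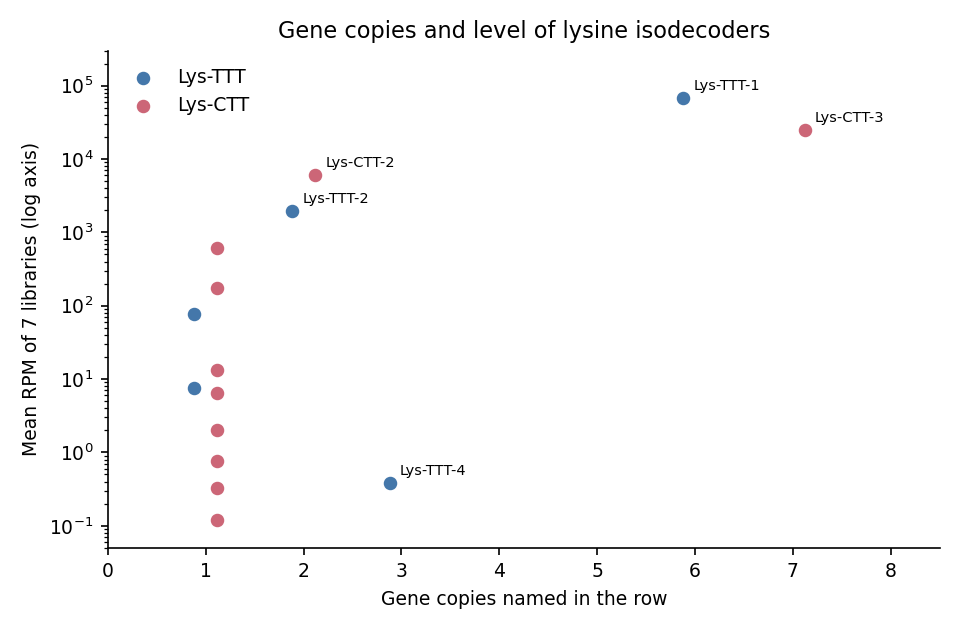
Mean RPM over 7 libraries (log axis) against the number of identical gene copies named in the row, for the 15 lysine isodecoders with reads. Lys-TTT-1 with 6 copies and Lys-CTT-3 with 7 are at the top, and Lys-TTT-4 with 3 copies lies at 0.378 RPM, below most single-copy members.

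Lys-TTT-1, the main Lys-TTT species, held 71719, 63294 and 66359 RPM in OPC replicates 1 to 3, 64519 and 62574 RPM in oligodendrocytes, and 79022 and 66920 RPM in astrocytes. The oligodendrocyte libraries were at the low end and overlapped the OPC libraries. Its log2 change was -0.08 between oligodendrocytes and OPCs (SE 0.065, limma adjusted p 0.426), 0.12 between astrocytes and OPCs (SE 0.10, limma adjusted p 0.491) and -0.19 between oligodendrocytes and astrocytes (SE 0.10, limma adjusted p 0.263). Leaving out OPC replicates 1 and 2 in turn gave -0.03 and -0.12 for the first, and the last was -0.07 without astrocyte replicate 1 and -0.31 without astrocyte replicate 2.

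Lys-TTT-2 was the member with the lowest p between oligodendrocytes and OPCs. It held 2650, 2602 and 2874 RPM in OPC replicates 1 to 3, 993 and 978 RPM in oligodendrocytes, and 1855 and 1581 RPM in astrocytes. OPCs were highest, astrocytes intermediate and oligodendrocytes lowest, and the groups did not overlap. It fell between OPCs and oligodendrocytes by 1.46 on the log2 scale (SE 0.10, limma adjusted p 0.00026), with the smallest p of all 192 isodecoders, to 0.364 of the OPC level. Relative to the median change of all isodecoders, 0.09, the log2 change was -1.55. Leaving out either oligodendrocyte library gave -1.47 and -1.45 with limma adjusted p-values of 0.011 and 0.012, above the threshold of 0.01. With 1 library left in a group, that library is assumed to vary like the others.

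The change between astrocytes and OPCs was smaller for Lys-TTT-2 and did not pass, at -0.66 (SE 0.13, limma adjusted p 0.024). It passed without OPC replicate 3, at -0.62 (limma adjusted p 0.0031), after median-of-ratios scaling, at -0.63 (limma adjusted p 0.0016), and in a fit of all 7 libraries, at an unchanged -0.66 (limma adjusted p 0.0065). The direct comparison of oligodendrocytes with astrocytes gave -0.80 (SE 0.13, limma adjusted p 0.0046), so its level was lower in oligodendrocytes by more than the spread between libraries. That call was lost without oligodendrocyte replicate 1 (limma adjusted p 0.063), without oligodendrocyte replicate 2 (0.061) or without astrocyte replicate 1 (0.04), at log2 changes of -0.81, -0.79 and -0.68. It was also lost without a variance trend (limma adjusted p 0.0242) and without the filter on low values (0.0221).

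Lys-TTT-3 was a minor species with 1 gene copy. It held 102, 111 and 106 RPM in OPC replicates 1 to 3, 40.2 and 52.3 RPM in oligodendrocytes, and 61.8 and 60.9 RPM in astrocytes. OPC libraries were above all the others, and both oligodendrocyte libraries were below both astrocyte libraries. It fell between OPCs and oligodendrocytes by 1.20 on the log2 scale (SE 0.21, limma adjusted p 0.0095), close to the threshold. The limma adjusted p was 0.033 without OPC replicate 1, 0.022 without OPC replicate 2, 0.091 without oligodendrocyte replicate 1 and 0.04 without oligodendrocyte replicate 2, with changes from -1.38 to -1.01. It was 0.0108 with a pseudocount of 10, 0.0218 without a variance trend and 0.0259 without the filter on low values. The log2 change was -0.79 between astrocytes and OPCs (SE 0.20, limma adjusted p 0.056) and -0.41 between oligodendrocytes and astrocytes (SE 0.24, limma adjusted p 0.311).

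Lys-TTT-5 was near the limit of detection, from 5.97 to 11.0 RPM or 8 to 29 reads per library, and its groups overlapped in all 3 comparisons.

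The shares within the Lys-TTT pool separated these changes from those of the pool. Lys-TTT-2 supplied 3.56% (95% Wilson interval 3.44 to 3.67), 3.94% (3.82 to 4.06) and 4.14% (4.05 to 4.24) of Lys-TTT reads in OPC replicates 1 to 3. It supplied 1.51% (1.44 to 1.59) and 1.54% (1.46 to 1.61) in oligodendrocytes, and 2.29% (2.23 to 2.36) and 2.31% (2.24 to 2.38) in astrocytes. The replicates of oligodendrocytes and of astrocytes agreed within their counting intervals, whereas OPC replicate 1 lay below the intervals of the other OPC libraries. The groups did not overlap.

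**Figure D4:**
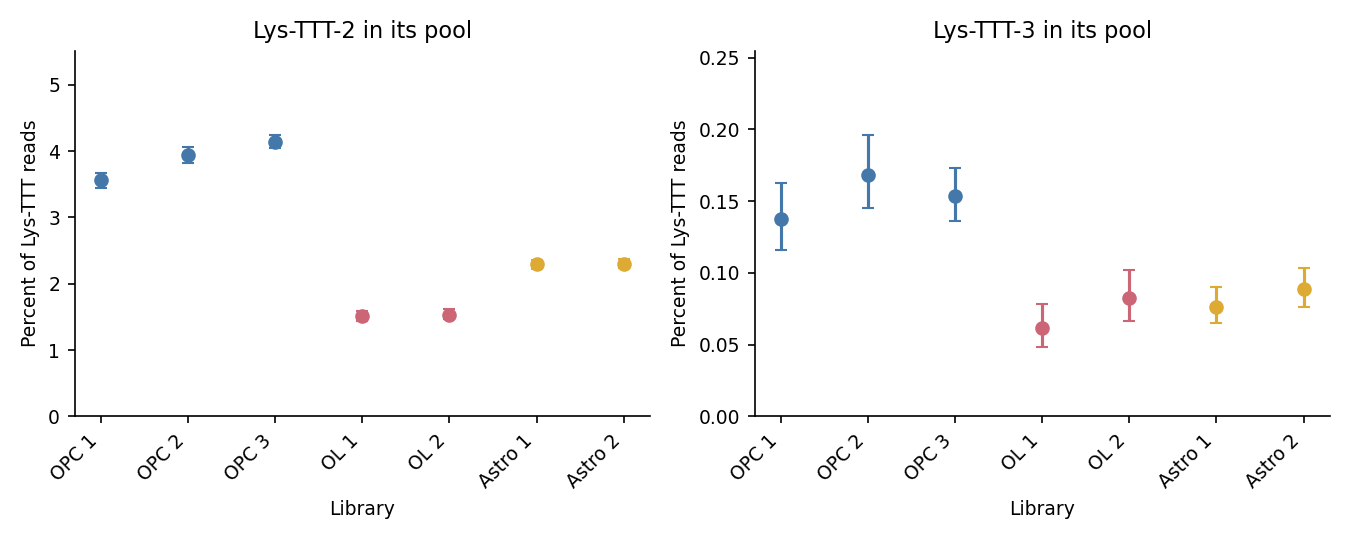
Percent of Lys-TTT reads from Lys-TTT-2 and from Lys-TTT-3 in each library, with 95% Wilson intervals of counting error as bars. Lys-TTT-2 is at 3.56% to 4.14% in OPCs, 2.29% and 2.31% in astrocytes and 1.51% and 1.54% in oligodendrocytes. Lys-TTT-3 is at 0.137% to 0.169% in OPCs and between 0.0614% and 0.0888% in the other libraries.

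The log2 change of the share of Lys-TTT-2 was -1.34 between oligodendrocytes and OPCs (SE 0.079, limma adjusted p 0.0087). This call was lost when any 1 of the 5 libraries was left out, with changes from -1.40 to -1.29 and limma adjusted p-values from 0.012 to 0.107, and without the filter on low values (limma adjusted p 0.0101). The change was -0.75 between astrocytes and OPCs (SE 0.079, limma adjusted p 0.05) and -0.59 between oligodendrocytes and astrocytes (SE 0.076, limma adjusted p 0.0141), and neither passed. Lys-TTT-1 was the counterpart, at 95.7% to 96.3% of its pool in OPCs, 98.4% in both oligodendrocyte libraries and 97.6% in both astrocyte libraries.

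Lys-TTT-3 supplied 0.137%, 0.169% and 0.154% of Lys-TTT reads in OPC replicates 1 to 3, 0.0614% and 0.0823% in oligodendrocytes, and 0.0764% and 0.0888% in astrocytes. The OPC libraries were above the rest, and oligodendrocytes and astrocytes overlapped. The log2 change of its share was -1.08 between oligodendrocytes and OPCs (SE 0.17, limma adjusted p 0.0316), -0.88 between astrocytes and OPCs (SE 0.12, limma adjusted p 0.0602) and -0.20 between oligodendrocytes and astrocytes (SE 0.18, limma adjusted p 0.579). Without oligodendrocyte replicate 1 the last of these was 0.0024.

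The Lys-CTT members showed smaller differences. Lys-CTT-3, the main species, held 22590, 24319 and 29680 RPM in OPC replicates 1 to 3, 24136 and 21978 RPM in oligodendrocytes, and 25572 and 25532 RPM in astrocytes. OPC replicate 3 was highest, and the OPC range enclosed the astrocyte libraries and oligodendrocyte replicate 1. Its log2 change was -0.14 between oligodendrocytes and OPCs (SE 0.12, limma adjusted p 0.426), and -0.03 without OPC replicate 3. It was 0.01 between astrocytes and OPCs (SE 0.13, limma adjusted p 0.963) and -0.15 between oligodendrocytes and astrocytes (SE 0.13, limma adjusted p 0.521).

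Lys-CTT-2, with 2 gene copies, was next in abundance. It held 5955, 6105 and 6230 RPM in OPC replicates 1 to 3, 6470 and 6039 RPM in oligodendrocytes, and 5999 and 5753 RPM in astrocytes. Its log2 change was 0.04 between oligodendrocytes and OPCs (SE 0.080, limma adjusted p 0.781), and it was -0.0021 with RPM rescaled to the listed cytosolic tRNAs and -0.03 with median-of-ratios scaling. It was -0.05 between astrocytes and OPCs (SE 0.11, limma adjusted p 0.755) and 0.09 between oligodendrocytes and astrocytes (SE 0.10, limma adjusted p 0.624), the latter -0.0045 after median-of-ratios scaling. Its share of the Lys-CTT pool was 20.4%, 19.6% and 16.9% in OPC replicates 1 to 3, 20.7% and 20.9% in oligodendrocytes and 18.4% and 17.9% in astrocytes, with oligodendrocytes above all the others.

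Lys-CTT-4 and Lys-CTT-1 had 1 gene copy each. Lys-CTT-4 held 494, 560 and 718 RPM in OPC replicates 1 to 3, 510 and 608 RPM in oligodendrocytes, and 699 and 662 RPM in astrocytes. Its log2 change was -0.07 between oligodendrocytes and OPCs (SE 0.19, limma adjusted p 0.845), 0.22 between astrocytes and OPCs (SE 0.19, limma adjusted p 0.491) and -0.29 between oligodendrocytes and astrocytes (SE 0.20, limma adjusted p 0.415). The first of these turned to 0.08 without OPC replicate 3 and to 0.06 without oligodendrocyte replicate 1.

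Lys-CTT-1 held 151, 117 and 200.2 RPM in OPC replicates 1 to 3, 127 and 206 RPM in oligodendrocytes, and 282 and 152 RPM in astrocytes. Astrocyte replicate 1 was highest, and all groups overlapped. Its log2 change was 0.09 between oligodendrocytes and OPCs (SE 0.29, limma adjusted p 0.871), 0.44 between astrocytes and OPCs (SE 0.32, limma adjusted p 0.416) and -0.36 between oligodendrocytes and astrocytes (SE 0.36, limma adjusted p 0.587).

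The remaining Lys-CTT members with at least 1 RPM were Lys-CTT-14 at a mean of 13.2 RPM, Lys-CTT-6 at 6.44 RPM and Lys-CTT-5 at 2.02 RPM. Together with Lys-TTT-5 they ranged from 0.747 to 19.2 RPM in single libraries, and their lowest limma adjusted p was 0.301 over 12 tests. Lys-CTT-6 was at 4.52 to 5.30 RPM in OPCs and at 6.29 to 8.72 RPM in the other 4 libraries, without overlap, from 7 to 20 reads per library.

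Counted over the 11 tested members, oligodendrocytes against OPCs gave 2 that passed, both in the Lys-TTT pool and both lower, where 5.73% of all 192 isodecoders passed (11 isodecoders, 9 of them lower). The libraries did not overlap for 3 of the 11 members, against 53.1% of all isodecoders, and the median log2 change of the members was 0.02 against 0.09 for all. Astrocytes against OPCs gave 0 members, where 0 (0%) of all isodecoders passed by limma and 40 had an unadjusted p under 0.05, 2 of them members. There was no overlap of libraries for 4 members, against 39.6% of all, and the median log2 change was 0.22 against 0.01.

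Oligodendrocytes against astrocytes gave 1 member, Lys-TTT-2, where 6.25% of all isodecoders passed. The libraries did not overlap for 8 of the 11 members, against 60.4% of all, and the median log2 change was -0.34 against 0.11. For shares within the pool, 1 of the 11 members passed between oligodendrocytes and OPCs (2.17% of all 184 shares), 0 between astrocytes and OPCs (0%, with 43 of all shares, 4 of them members, at an unadjusted limma p under 0.05) and 0 between oligodendrocytes and astrocytes (3.8%, with 50 of all shares, 1 of them a member, at an unadjusted limma p under 0.05). Libraries did not overlap for 6, 6 and 5 members in these 3 comparisons, against 55.4%, 43.5% and 58.7% of all shares. The comparisons with OPCs share the OPC libraries, so their calls are not separate evidence.

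**Figure D5:**
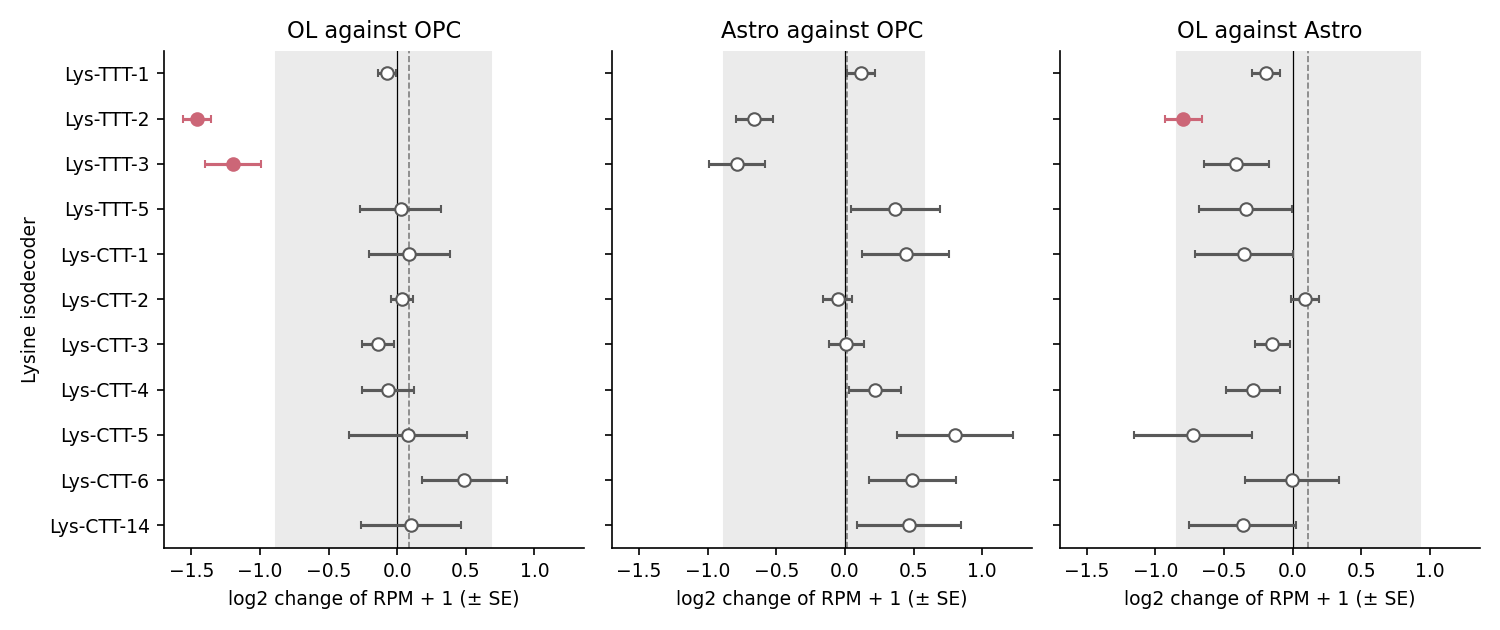
Log2 change of RPM + 1 with its SE for the 11 tested lysine isodecoders in the 3 comparisons. Filled points passed an adjusted p of 0.01, the grey band runs from the 5th to the 95th percentile of all 192 isodecoders and the dashed line is their median. Lys-TTT-2 and Lys-TTT-3 lie below the band between oligodendrocytes and OPCs, at -1.46 and -1.20.

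The anticodon pools whose profile over the 7 libraries was nearest that of Lys-TTT, by the root mean square difference of centred log2(RPM + 1), were Phe-GAA at 0.114 and Glu-TTC at 0.129, after Cys-ACA at 0.112, which is listed at 0 in every library and so has a flat profile. For Lys-CTT they were Arg-TCG at 0.105, Cys-ACA at 0.109 and Glu-TTC at 0.109. The median over the other 51 anticodons was 0.208 for Lys-TTT and 0.193 for Lys-CTT.

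Among 181 isodecoders of other amino acids the nearest to Lys-TTT-2 were Ala-AGC-5 at 0.200, Met-CAT-4 at 0.208 and Val-AAC-2 at 0.241, where the median was 0.695. Those nearest to Lys-TTT-3 were Ala-AGC-5 at 0.186, Leu-CAA-4 at 0.211 and Arg-TCT-5 at 0.240, where the median was 0.614. Ala-AGC-5 had 13260 ± 1540 RPM (SD, n = 3) in OPCs and 6345 ± 99.0 RPM (SD, n = 2) in oligodendrocytes. In astrocytes it had 9715 ± 323 RPM (SD, n = 2). It was picked for its likeness to Lys-TTT-2 in these libraries, so their shared order of cell types follows from that choice.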

How the data were processed

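The authors made the libraries by QuantM-seq and, by the study's methods, trimmed reads with cutadapt, mapped them with bowtie2 to high-confidence mature tRNAs (mm10) with identical genes collapsed, and counted them with featureCounts at a minimum mapping quality of 10. The deposited RPM were scaled by the authors to all cytosolic and mitochondrial tRNA reads. Every RPM was a whole multiple of 1 read within 0.01 reads, which gave the depth. Reads that stop or misread at modified bases can be lost in such data. For all Lys-TTT isodecoders, the study found fewer such events in the anticodon loop in oligodendrocytes than in OPCs and astrocytes. Whether this affected how reads were assigned to isodecoders was not tested. The authors' DESeq2 tables of fold changes and p-values were not used.

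Values were compared as log2(RPM + 1), which understates changes of low tRNAs, by two-sided limma fits (version 3.58.1, R 4.3.3) with a variance trend for levels and none for shares. Benjamini-Hochberg adjustment ran over all 52 anticodons, 192 isodecoders of at least 1 RPM, 184 isodecoder shares or 39 isoacceptor shares, and the threshold was an adjusted p of 0.01. Fits against OPCs held 5 libraries, and the fit of oligodendrocytes against astrocytes held all 7. Single values were compared by exact permutation tests (Python 3.11.15). Replicates differed by more than sampling noise (chi-square over its degrees of freedom, 31.0 to 195). The limma p-values set a difference against the spread between these libraries, in part pooled over features. The study calls the libraries biological replicates, and how much of their spread is technical was not tested. All lysine rows were described, and the members, lists and rules were chosen with earlier results of these data known. The fits were also run on simulated data with independent libraries. In the real data oligodendrocytes came from OPC replicates, so that run cannot show how reliable the calls are for this design.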

Additional observations from a re-analysis of the deposited data

Results flagged for a closer look

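Lys-TTT-2 was singled out because its change from OPCs differed between oligodendrocytes and astrocytes by a direct test. The log2 change was -1.46 in oligodendrocytes and -0.66 in astrocytes, and the difference between them was -0.80 (limma adjusted p 0.0046). The call was lost without oligodendrocyte replicate 1 (limma adjusted p 0.063), oligodendrocyte replicate 2 (0.061) or astrocyte replicate 1 (0.04), without a variance trend (0.0242), without the filter on low values (0.0221), and with a replicate block in the 4 oligodendrocyte and astrocyte libraries, either with the numbers as given (0.135) or crossed (0.0101). Both oligodendrocyte libraries were below both astrocyte libraries, and both of those were below all 3 OPC libraries. The difference of its share in the pool was -0.59 (limma adjusted p 0.0141). The cause was not tested.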

How the results depend on the processing

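Counts below are in the order of levels of isodecoders, shares of isodecoders and shares of isoacceptors. For oligodendrocytes against OPCs, where 11, 4 and 0 passed, a threshold of 0.05 gave 35, 26 and 2, and 4 anticodons. Levels gave 17 with RPM rescaled to the listed cytosolic tRNAs, 22 with median-of-ratios scaling, 2 without a variance trend, 1 without a filter and 19 from 100 RPM. Shares of isodecoders gave 12 with a pseudocount of 10, 10 with a variance trend, 17 in a fit of all 7 libraries, 1 without a filter and 16 from 100 RPM, and a variance trend gave 9 isoacceptor shares. For astrocytes against OPCs, where 0 passed at every level, isodecoder levels gave 14 at a threshold of 0.05, 17 with median-of-ratios scaling, 10 in a fit of all 7 libraries and 1 from 100 RPM, and a variance trend gave 5 isoacceptor shares. For oligodendrocytes against astrocytes, where 12, 7 and 0 passed, levels gave 0 without a variance trend and 0 without a filter. Shares of isodecoders gave 26 at 0.05, 15 with a variance trend, 15 from 100 RPM and 0 in the 4 libraries alone, and isoacceptor shares gave 2 at 0.05 and 1 with a variance trend. Leaving out 1 library gave 0 to 29, 0 to 17 and 0 to 20 isodecoders in the 3 comparisons, and 0 to 5 and 0 to 8 shares in the first and last. The highest counts came without OPC replicate 3, and leaving out either oligodendrocyte library gave 0 in both comparisons that held it.

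Of 576 alternatives for single members 519 kept direction and side of the threshold, 25 turned the direction, 23 lost a call and 9 gained one. A changed threshold, filter or variance trend leaves the log2 change as it was, so those alternatives could not turn a direction. No alternative turned the direction of Lys-TTT-2, or of the level of Lys-TTT-3, which a minimum of 100 RPM left out. Lys-CTT-2 turned to -0.0021 (rescaled RPM) and -0.026 (median-of-ratios) between oligodendrocytes and OPCs, and to -0.0045 (median-of-ratios) between oligodendrocytes and astrocytes. The balance between oligodendrocytes and OPCs turned to 0.062 with the most abundant isodecoder of each pool. Leaving out 1 library gave log2 changes that included both signs. Between oligodendrocytes and OPCs they were -0.26 to 0.43 for Lys-CTT-1, -0.014 to 0.086 for Lys-CTT-2, -0.19 to 0.081 for Lys-CTT-4, -0.034 to 0.035 for the share of Lys-TTT and -0.11 to 0.11 for the balance. Between astrocytes and OPCs they were -0.066 to 0.10 for Lys-CTT, -0.027 to 0.21 for Lys-TTT, -0.0027 to 0.89 for Lys-CTT-1, -0.072 to 0.12 for Lys-CTT-3, -0.0025 to 0.24 for Lys-TTT-1, -0.0045 to 0.065 for the share of Lys-TTT, -0.022 to 0.20 for the balance and -0.022 to 0.15 for the lysine total. Between oligodendrocytes and astrocytes they were -0.80 to 0.089 for Lys-CTT-1, -0.41 to 0.0024 for the share of Lys-TTT-3, -0.063 to 0.0032 for the share of Lys-TTT and -0.21 to 0.010 for the balance. Values that kept their sign ran from -0.22 to -0.03 for Lys-CTT-3 between oligodendrocytes and OPCs, from -0.22 to -0.08 for it between oligodendrocytes and astrocytes, and from 0.10 to 0.37 and -0.41 to -0.16 for Lys-CTT-4 between astrocytes and OPCs and between oligodendrocytes and astrocytes. The causes were not tested.

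The study does not say whether the replicate numbers pair the samples. Deviations of same-numbered libraries correlated at 0.118 and -0.111 for oligodendrocytes and OPCs, and at -0.075 and 0.343 for astrocytes and OPCs. For oligodendrocytes and astrocytes the value was -0.294. These values cannot decide the pairing, because deviations in a group of 2 libraries mirror each other. A replicate block left OPC replicate 3 alone in its block in the fits against OPCs, so log2 changes equalled those without that library. Few degrees of freedom then remained to estimate the spread, so block calls against OPCs are weak evidence. The block gave 45 isodecoders and 0 shares between oligodendrocytes and OPCs, and 24 isodecoders between astrocytes and OPCs. It gave 10 isodecoders and 0 shares between oligodendrocytes and astrocytes. With it the level of Lys-TTT-2 passed between astrocytes and OPCs at -0.62 (limma adjusted p 0.0041), as did that of Lys-TTT-3 at -0.79 (0.0062), and the share of Lys-TTT-2 no longer passed between oligodendrocytes and OPCs, at -1.29 (0.0672). With it Lys-CTT-4 had a log2 change of 0.081 between oligodendrocytes and OPCs and the share of Lys-TTT by -0.0039 between astrocytes and OPCs. In the 4 oligodendrocyte and astrocyte libraries alone, an alternative chosen after seeing the data, the replicate block gave 0 isodecoders and 0 shares, and with the numbers crossed 10 isodecoders, without Lys-TTT-2, and 0 shares.

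The groups held 2 or 3 libraries. Counting intervals were also wide for the minor members: Lys-TTT-3 had 64 and 84 reads in the oligodendrocyte libraries, and the intervals of its share overlapped between replicates in every group.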
